A study of Homo sapiens with 12 samples.

Results

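Most of the genes described here move copper across membranes or carry it inside the cell, and several are linked to platinum drugs. They are SLC31A1, SLC31A2, ATP7A, ATP7B, ATOX1, CCS, COX17, COMMD1 and TMEM205. Of these, COMMD1 is included as a regulator and TMEM205 as a platinum resistance protein. All the genes were taken by name, each by its probe set with that gene symbol alone. Where there were several, the one with the highest mean over 12 arrays was used. Of the 9 genes, 8 were measured among the 18417 genes of the table, each by 1 probe set. COX17 was not measured alone, because both of its probe sets also carry the symbol POPDC2, so it is given no value. RNA was profiled on Affymetrix arrays in 4 groups of 3 arrays from human pancreatic ductal adenocarcinoma lines. AsPC1-R is a cisplatin-resistant derivative of AsPC1 kept in 1.67 µM cisplatin, and AsPC1 is its parental line. BxPC3-R is a cisplatin-resistant derivative of BxPC3 kept in 0.60 µM cisplatin, and BxPC3 is its parental line. All groups were grown in RPMI medium with serum, the parental lines without the drug, and the derivatives had their final passage without it too. Each line has 1 derivative, so a change from the parental line cannot be told apart from a trait of that derivative. Nothing in the labels says whether the 3 arrays of a group are separate cultures. The p-values therefore measure only the spread between these arrays, which may be technical.

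Cells take up copper through SLC31A1 (also called CTR1), a high-affinity importer of the plasma membrane. SLC31A2 (CTR2) is a related protein found mainly on intracellular vesicles. Inside the cell ATOX1 hands copper to the P-type ATPases ATP7A and ATP7B, which load copper enzymes in the Golgi and export excess copper, while CCS delivers it to superoxide dismutase and COX17 to cytochrome c oxidase. Cisplatin, a platinum drug that crosslinks DNA, binds to several of these proteins, and changes in their amount have been linked to platinum accumulation and resistance in cultured cells. The arrays report RNA, not copper, platinum or protein.

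Promoter sequence was at hand for 7 of the 9 genes, from RefSeq on GRCh38.p14, and it is printed for SLC31A1, ATP7A and ATOX1 because these genes rose in AsPC1-R. Each line gives the 250 bases before the annotated start, 5′ to 3′ on the strand of the gene: chr9:113221294-113221543, plus strand, for SLC31A1, chrX:77910443-77910692, plus strand, for ATP7A and chr5:151758632-151758881, minus strand, for ATOX1.
SLC31A1: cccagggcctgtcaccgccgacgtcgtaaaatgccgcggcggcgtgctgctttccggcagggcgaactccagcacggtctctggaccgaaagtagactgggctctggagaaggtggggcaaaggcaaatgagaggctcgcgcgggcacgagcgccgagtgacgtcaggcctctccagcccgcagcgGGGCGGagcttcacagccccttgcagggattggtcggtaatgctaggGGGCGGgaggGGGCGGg
ATP7A: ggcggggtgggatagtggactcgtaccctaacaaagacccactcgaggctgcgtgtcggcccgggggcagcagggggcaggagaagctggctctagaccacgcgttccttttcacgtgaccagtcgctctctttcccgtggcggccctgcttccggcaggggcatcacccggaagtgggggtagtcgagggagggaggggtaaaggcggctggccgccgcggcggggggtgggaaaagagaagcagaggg
ATOX1: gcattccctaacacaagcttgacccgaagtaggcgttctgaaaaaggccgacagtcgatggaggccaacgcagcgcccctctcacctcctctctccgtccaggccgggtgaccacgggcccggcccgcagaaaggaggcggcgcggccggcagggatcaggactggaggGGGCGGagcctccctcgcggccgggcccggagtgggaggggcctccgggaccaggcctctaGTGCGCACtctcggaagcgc
Capitals mark matches on either strand to the GC box GGGCGG, which Sp1 can bind, and to the metal response element core of MTF1, searched as TGCACNC and TGCGCNC. The antioxidant response element core TGACNNNGC was searched too and had 0 matches in these 3 windows. SLC31A1 held 3 GC boxes, ATP7A held no match to any of the motifs, and ATOX1 held 1 GC box and 1 metal response element core, read from both strands of the same bases. Among all 35116 promoter windows of this length, 42.6% held a GC box, 24.8% a metal response element core and 10.9% an antioxidant response element core. The motifs are a description of the letters in these windows, and binding was not measured.

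Values are log2 expression levels from RMA, so a difference of 1 is a 2-fold difference. The median log2 value of an array was 6.48 to 6.65. Genes that BxPC3 has lost by deletion, SMAD4 and CDKN2A, still read 4.70 ± 0.49 and 6.22 ± 0.11 there (mean ± SD, n = 3), so readings in this range are not shown to stand above background, and ATP7B lies in it in every group. BxPC3 replicate 2 stands apart from the other BxPC3 arrays: it had the top BxPC3 reading for 50 of the 50 genes in which AsPC1 exceeded BxPC3-R most, with a median excess of 0.83. For the genes named at the opening, results that involve BxPC3 are therefore also given without it where its absence matters. No values without it are given for the markers or for genes of other lists. Its weight in their BxPC3 results is thus not known. EPCAM, an epithelial adhesion molecule, read 13.06 in AsPC1-R, 13.29 in AsPC1, 12.45 in BxPC3-R and 12.43 in BxPC3. It was the highest of 6 epithelial markers in each group. Group means of the 6 spanned 7.19 to 13.06 in AsPC1-R and 7.02 to 13.29 in AsPC1, with KRT7 the lowest in both. They spanned 10.82 to 12.45 in BxPC3-R and 9.80 to 12.43 in BxPC3. Of these 6 markers, 0 rose and 2 fell in AsPC1-R, where 20.3% of all genes passed. In BxPC3-R 3 rose and 0 fell, where 20.8% of all genes passed. Of the 4 leukocyte markers, PTPRC, CD3E, CD14 and MS4A1, the group means lay between 3.19 and 6.42. CD3E changed by -0.47 in BxPC3-R (adjusted p = 0.0184 by limma), at readings in the range of the deleted genes. No other leukocyte marker passed in either derivative. The 4 acinar and endocrine markers measured lay between 3.81 and 7.01. CELA3A changed by -0.35 in AsPC1-R (adjusted p = 0.0472), and the others of these 4 did not pass in either derivative. Mean levels of the 4 endothelial markers per array lay at 5.75 to 5.83 in BxPC3-R and 6.63 to 6.81 in BxPC3. Of these 4, VE-cadherin (CDH5), at 6.67 in BxPC3-R and 9.34 in BxPC3, and PECAM1, at 6.04 in BxPC3-R and 7.28 in BxPC3, fell there, while VWF and KDR did not pass (-0.01 and 0.10). In AsPC1-R PECAM1 rose by 0.66 (adjusted p = 0.00292), at 6.35 in AsPC1-R and 5.69 in AsPC1, and the other endothelial markers did not pass. The PECAM1 readings of 5.69 in AsPC1 and 6.04 in BxPC3-R lie in the range of the deleted genes. Sizes of its changes are thus uncertain. Among the 5 fibroblast markers, the matrix gene LUM read 10.51 in AsPC1-R and 11.55 in AsPC1, against 6.45 in BxPC3-R and 4.91 in BxPC3. The other fibroblast markers did not pass in either derivative, with group means of 7.29 to 7.42 for COL1A1, 6.39 to 6.61 for COL1A2, 3.83 to 4.10 for DCN and 5.60 to 5.96 for PDGFRB. The part of these markers in the results below was not tested.

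In AsPC1-R the importer gene SLC31A1, the related SLC31A2, the exporter gene ATP7A, the chaperone gene ATOX1 and TMEM205 stood above AsPC1. These 5 of 8 measured genes rose at an adjusted p under 0.05 by limma, with p-values adjusted over all 18417 genes, and 0 fell. Of all genes tested, 20.3% passed in this comparison, 11.6% as rises and 8.64% as falls. All 3 AsPC1-R arrays lay above all 3 AsPC1 arrays for 6 of the 8 genes and below them for 0, while 33.4% of all genes did not overlap (16.1% above, 17.3% below). The median log2 change of the 8 genes was 0.38, against -0.05 for all genes, and none of the 8 changed 2-fold. In BxPC3-R ATP7A rose while SLC31A2 and ATP7B fell, 3 of 8 in all, where 20.8% of all genes passed (9.75% rose and 11.0% fell). The ATP7B readings are not shown to stand above background. The BxPC3-R arrays lay above all BxPC3 arrays for 2 of the 8 genes and below them for 3, while 38.2% of all genes did not overlap (19.4% above, 18.8% below). The median change of the 8 genes there was -0.13, against 0.02 for all genes. ATP7A was the 1 member of 8 that rose in both derivatives, and 1.27% of all genes did so.

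**Figure D1:**
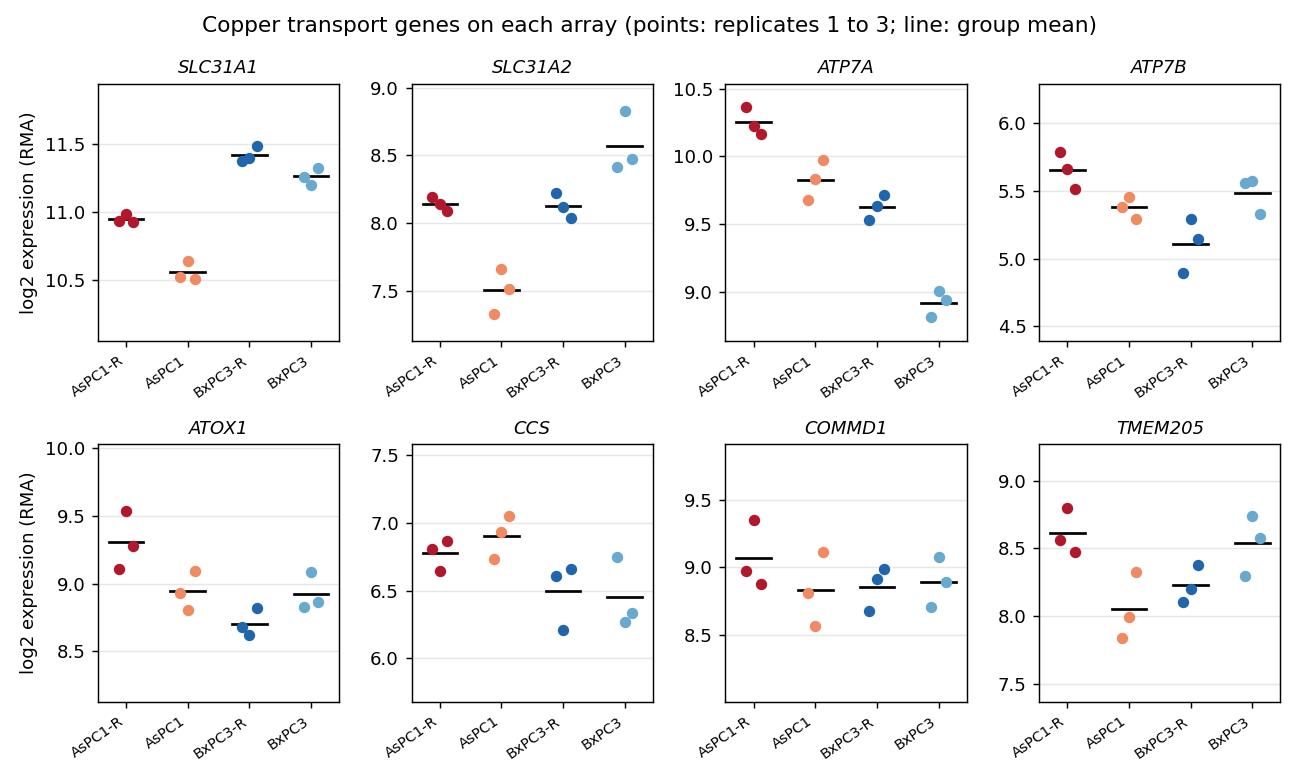
Log2 expression (vertical axis, the same span of values in each panel) of the 8 measured genes on each of the 12 arrays, by cell line (horizontal axis). Points are replicates 1 to 3 and lines are group means. ATP7A is higher in each derivative than in its parental line, and SLC31A2 stands near 8.1 in both derivatives, with AsPC1 below and BxPC3 above them.

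The importer gene SLC31A1 rose in AsPC1-R. It read 10.93, 10.98 and 10.93 on the AsPC1-R arrays, against 10.52, 10.64 and 10.51 on the AsPC1 arrays. All AsPC1-R arrays lay above all AsPC1 arrays, and the log2 change was 0.39 (SE 0.076, adjusted p = 0.00198), a 1.31-fold difference with a 95% interval of 1.17 to 1.47. In BxPC3-R it read 11.37, 11.40 and 11.49, against 11.26, 11.20 and 11.32 in BxPC3. These groups did not overlap either, but the change of 0.16 (SE 0.076, adjusted p = 0.181) did not pass, with an interval of -0.01 to 0.32. The change in AsPC1-R minus that in BxPC3-R was 0.24 (SE 0.11, adjusted p = 0.130), so the derivatives are not shown to differ in it, although the difference passed with array weights (0.30, adjusted p = 0.0199). The level was highest in BxPC3-R and BxPC3, which did not differ beyond their spread, then lower in AsPC1-R and lowest in AsPC1, with each of those steps past the test (adjusted p = 0.00389 and 0.00198). The log2 difference of AsPC1 minus BxPC3 was -0.71 (SE 0.076, adjusted p = 2.73e-06).

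SLC31A2 changed in opposite directions. It read 8.19, 8.14 and 8.09 in AsPC1-R, against 7.33, 7.66 and 7.51 in AsPC1, which gave a rise of 0.64 (SE 0.11, adjusted p = 0.00122), or 1.55-fold. Of all genes, 6.03% changed by more than this in either direction. It read 8.22, 8.12 and 8.04 in BxPC3-R, against 8.42, 8.83 and 8.47 in BxPC3, a log2 change of -0.45 (SE 0.11, adjusted p = 0.0125). Neither pair of groups overlapped. The highest of these readings was that of BxPC3 replicate 2, and without it the change was -0.32 (adjusted p = 0.0574). The call was lost without BxPC3-R replicate 3 as well, at -0.40 (adjusted p = 0.0544). The difference between the lines was 1.08 (SE 0.16, adjusted p = 0.000214), and 0.95 without BxPC3 replicate 2 (adjusted p = 0.000313). AsPC1 minus BxPC3 was -1.07 (SE 0.11, adjusted p = 2.81e-06), while AsPC1-R minus BxPC3-R was 0.01 with an interval of -0.23 to 0.26. In the order of levels, BxPC3 stood above AsPC1-R and BxPC3-R (adjusted p = 0.00729 for AsPC1-R), and AsPC1 lay below BxPC3-R (adjusted p = 0.000439).

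SLC31A2 and SLC31A1 lie near each other on chromosome 9, with FKBP15 the measured gene between them. FKBP15 changed by 0.18 (adjusted p = 0.175) in AsPC1-R and by -0.07 (adjusted p = 0.651) in BxPC3-R. CDC26, on the far side of SLC31A1, changed by 0.28 (adjusted p = 0.348) in AsPC1-R, and ZFP37, on the far side of SLC31A2, rose there by 0.49 (adjusted p = 0.00372). Over all 8 members, 15 genes were nearest measured neighbours. Of these, 3 rose in AsPC1-R (ZFP37, SPARC next to ATOX1 and B3GNT2 next to COMMD1) and 0 fell. Of all genes, 20.3% passed there, 11.6% as rises and 8.64% as falls. In BxPC3-R 1 neighbour rose (CCDC87 next to CCS) and 1 fell (RAB3D next to TMEM205), where 20.8% of all genes passed. Counted in both directions together, the share of neighbours called was not above that of all genes. Counted as rises alone, the share in AsPC1-R was above that of all genes, on 3 neighbours. Whether chromosomal position plays a part was not tested. COX7B and PGK1, on either side of ATP7A, did not pass in either derivative, with changes between -0.26 and 0.09.

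Of the exporters, ATP7A, the ATPase whose loss causes Menkes disease, rose in both derivatives. It read 10.36, 10.23 and 10.16 in AsPC1-R, against 9.68, 9.83 and 9.97 in AsPC1. The rise was 0.42 (SE 0.097, adjusted p = 0.00645), or 1.34-fold with an interval of 1.16 to 1.55. It read 9.53, 9.64 and 9.71 in BxPC3-R, against 8.81, 9.003 and 8.94 in BxPC3, and the rise was 0.71 (SE 0.097, adjusted p = 0.00012), or 1.63-fold with an interval of 1.42 to 1.89. In both lines every derivative array lay above every parental array. Of all genes, 5.27% changed by more than this in BxPC3-R. The change in AsPC1-R minus that in BxPC3-R was -0.29 (SE 0.14, adjusted p = 0.151, interval -0.58 to 0.01). Both rises passed with each of the 12 arrays left out, at 0.35 to 0.50 in AsPC1-R and 0.66 to 0.76 in BxPC3-R. AsPC1 stood 0.91 above BxPC3 (SE 0.097, adjusted p = 2.52e-06), so the order was AsPC1-R, then AsPC1 and BxPC3-R, which did not differ beyond their spread (adjusted p = 0.102), then BxPC3.

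ATP7B, the liver-type exporter affected in Wilson disease, gave low readings. It read 5.79, 5.66 and 5.52 in AsPC1-R, against 5.38, 5.46 and 5.30 in AsPC1, a change of 0.28 (SE 0.11, adjusted p = 0.104) that did not pass although the groups did not overlap. It read 4.90, 5.29 and 5.15 in BxPC3-R, against 5.56, 5.57 and 5.33 in BxPC3, where it fell by 0.38 on the log2 scale (SE 0.11, adjusted p = 0.0292), again without overlap. CDKN2A, deleted in BxPC3, had a call of like size at like readings, with -0.47 in BxPC3-R (adjusted p = 0.0249) and 0.70 for the difference between the lines (adjusted p = 0.0158). The ATP7B fall was not called without BxPC3 replicate 2 (-0.33, adjusted p = 0.101), BxPC3 replicate 1 (-0.34, adjusted p = 0.0944), BxPC3-R replicate 1 (-0.27, adjusted p = 0.146) or BxPC3-R replicate 3 (-0.39, adjusted p = 0.0589), with BxPC3-R and BxPC3 alone in the fit (adjusted p = 0.0514), or with array weights (-0.23, adjusted p = 0.0827). The difference between the lines was 0.65 (SE 0.16, adjusted p = 0.00777) and passed in all 19 alternatives that kept the gene and were run for it, with adjusted p from 0.00482 to 0.0244. No step between neighbours in the order of levels, AsPC1-R, BxPC3, AsPC1 and BxPC3-R, passed. The ends of the order did, with AsPC1-R above BxPC3-R by 0.54 (SE 0.11, adjusted p = 0.00113). No group mean reached 6.55, the median of all values, so neither the sizes nor the calls for ATP7B are shown to reflect its transcript.

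Among the chaperones, ATOX1 rose in AsPC1-R. It read 9.11, 9.54 and 9.28 in AsPC1-R, against 8.93, 8.81 and 9.09 in AsPC1, a change of 0.37 (SE 0.12, adjusted p = 0.0438). The lowest AsPC1-R array lay just above the highest AsPC1 array. Of 21 alternatives, 11 lost this call, with adjusted p up to 0.192 without AsPC1-R replicate 2. It read 8.68, 8.62 and 8.82 in BxPC3-R, against 8.82, 9.09 and 8.87 in BxPC3, a change of -0.22 (SE 0.12, adjusted p = 0.239) that was -0.14 without BxPC3 replicate 2 (adjusted p = 0.571). The difference between the lines was 0.59 (SE 0.17, adjusted p = 0.0192), and it was not called without BxPC3 replicate 2 (0.51, adjusted p = 0.0505) or BxPC3-R replicate 2 (0.54, adjusted p = 0.0511). AsPC1 and BxPC3 differed by 0.02 (interval -0.24 to 0.27), while AsPC1-R stood above BxPC3-R by 0.60 (SE 0.12, adjusted p = 0.000762).

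CCS, the copper chaperone of superoxide dismutase, passed in neither derivative. It lay at 6.65 to 6.87 in AsPC1-R, against 6.73 to 7.05 in AsPC1 (change -0.13, interval -0.44 to 0.18, adjusted p = 0.577). With single arrays left out that change ranged from -0.21, without AsPC1 replicate 1, to -0.056, without AsPC1 replicate 3, and it was -0.065 without AsPC1-R replicate 2. It lay at 6.21 to 6.66 in BxPC3-R, against 6.27 to 6.75 in BxPC3 (change 0.04, interval -0.27 to 0.35, adjusted p = 0.893). The groups overlapped in both pairs, and the intervals leave room for ratios down to 0.737 in AsPC1-R over AsPC1 and up to 1.28 in BxPC3-R over BxPC3. CCS was higher in AsPC1 than in BxPC3 by 0.45 (SE 0.14, adjusted p = 0.0189). That call was lost without BxPC3 replicate 2 (0.36, adjusted p = 0.0835), BxPC3 replicate 3 (0.40, adjusted p = 0.0694) or AsPC1 replicate 3 (0.38, adjusted p = 0.0618). CCS means of 6.45 in BxPC3 and 6.49 in BxPC3-R lay under 6.55, the median of all values. CDKN2A, a gene this line has lost, averaged 6.22 in BxPC3 and 5.75 in BxPC3-R. The lower CCS arrays of both groups are thus not shown to stand above background. The sizes of CCS differences that use these groups are uncertain.

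COMMD1, which takes part in endosomal sorting of the copper ATPases, passed in none of the comparisons. It lay at 8.88 to 9.35 in AsPC1-R, against 8.57 to 9.12 in AsPC1 (change 0.23, interval -0.10 to 0.57, adjusted p = 0.325). With single arrays left out this change ranged from 0.094, without AsPC1-R replicate 2, to 0.38, without AsPC1 replicate 3, and it was 0.10 without AsPC1 replicate 2. It lay at 8.68 to 8.99 in BxPC3-R, against 8.71 to 9.08 in BxPC3 (change -0.03, interval -0.37 to 0.30, adjusted p = 0.920). Its spread within groups, with SD from 0.16 to 0.27, was among the wider of the 8 genes, and all 4 groups overlapped.

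TMEM205, a membrane protein known for its association with cisplatin resistance in cultured cells, rose in AsPC1-R. It read 8.56, 8.80 and 8.48 in AsPC1-R, against 7.84, 7.99 and 8.32 in AsPC1, a change of 0.56 (SE 0.14, adjusted p = 0.0120), or 1.47-fold with an interval of 1.19 to 1.82. The groups did not overlap, but the call was lost without AsPC1-R replicate 2 (0.47, adjusted p = 0.0626) or AsPC1 replicate 1 (0.45, adjusted p = 0.0595). It read 8.10, 8.20 and 8.38 in BxPC3-R, against 8.30, 8.74 and 8.58 in BxPC3, a change of -0.31 (SE 0.14, adjusted p = 0.157) with overlapping groups, which passed with array weights (-0.36, adjusted p = 0.0114). The difference between the lines was 0.87 (SE 0.20, adjusted p = 0.00536), and 0.77 without BxPC3 replicate 2 (adjusted p = 0.0151). AsPC1 minus BxPC3 was -0.49 (SE 0.14, adjusted p = 0.0116), a call lost without BxPC3 replicate 2 (adjusted p = 0.0580) or AsPC1 replicate 1 (adjusted p = 0.0576). No step between neighbours in its order of levels, AsPC1-R, BxPC3, BxPC3-R and AsPC1, passed.

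**Figure D2:**
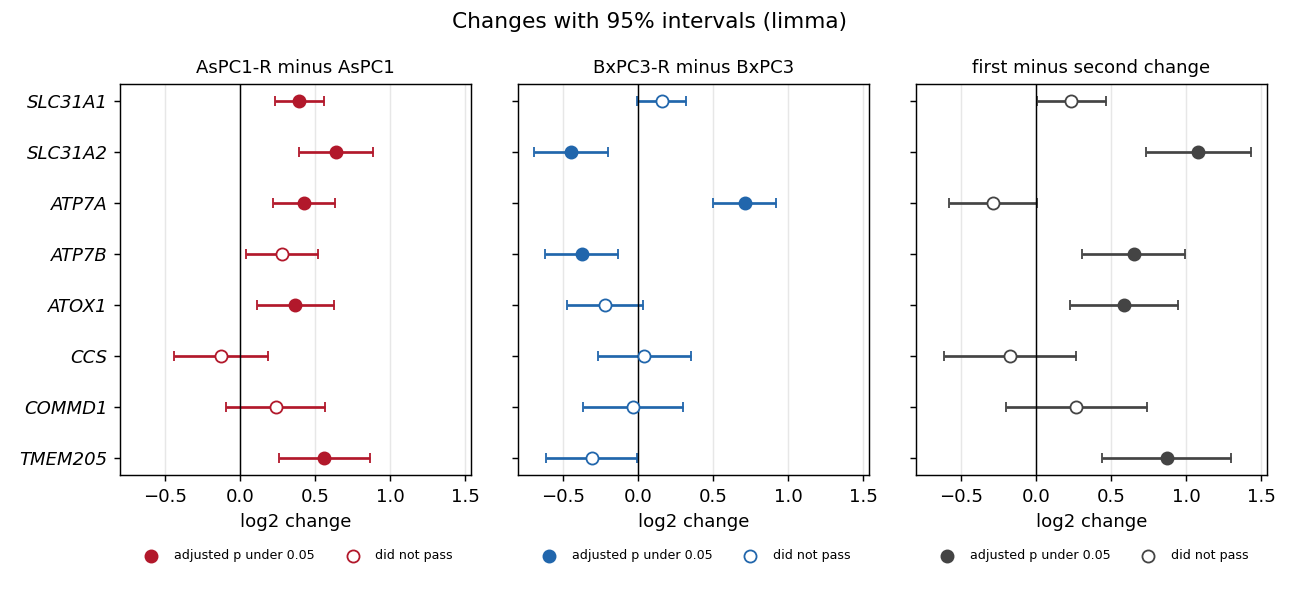
Log2 changes (horizontal axis) of the 8 measured genes in AsPC1-R minus AsPC1 and in BxPC3-R minus BxPC3, and of the first change minus the second, with 95% intervals that are not adjusted for the number of genes. Filled points passed at an adjusted p under 0.05. SLC31A2, ATP7B, ATOX1 and TMEM205 passed in the third panel, with values from 0.59 to 1.08, and ATP7A is filled on the right of 0 in both of the first panels. The ATP7B readings are not shown to stand above background.

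The 2 derivatives were also set against each other gene by gene, as the difference between their changes. SLC31A2, ATP7B, ATOX1 and TMEM205, 4 of 8, differed, all with the higher change in AsPC1-R. Of all genes, 25.4% differed, 14.1% with the higher and 11.3% with the lower change in AsPC1-R. ATP7B is counted here and below although its readings are not shown to stand above background. CCS is counted as well, although its lower readings in BxPC3 and BxPC3-R share that limit. The median difference was 0.43 over the 8 genes and -0.07 over all genes. Between the parental lines 5 of 8 differed, where 50.6% of all genes did, 27.7% higher and 22.9% lower in AsPC1: ATP7A and CCS were higher in AsPC1, and SLC31A1, SLC31A2 and TMEM205 were lower. Between the derivatives 5 of 8 differed as well, where 43.3% of all genes did, 21.3% higher and 22.0% lower in AsPC1-R: ATP7A, ATP7B, ATOX1 and TMEM205 were higher in AsPC1-R and SLC31A1 was lower. TMEM205 in that last comparison stood at 0.38 (SE 0.14, adjusted p = 0.0413) and lost its call in 7 of 21 alternatives. These comparisons share arrays, so they are not independent of each other.

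**Figure D3:**
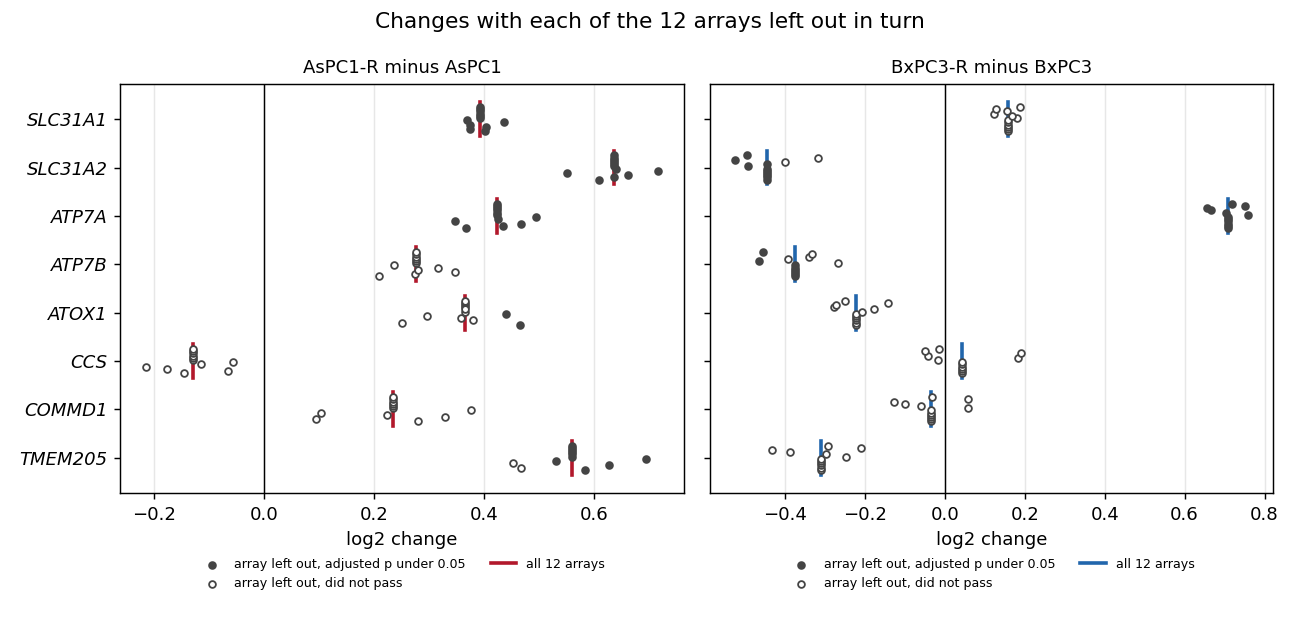
Log2 changes (horizontal axis) of the 8 measured genes in both derivatives with each of the 12 arrays left out in turn. Coloured lines are the values with all arrays, filled points passed at an adjusted p under 0.05 and open points did not. ATP7A stays filled in both panels, and SLC31A1 and SLC31A2 stay filled in AsPC1-R.

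The members were also compared over the 12 arrays, as a description, since arrays of a group share their cells and all values of an array share its labelling and normalization. SLC31A1 and SLC31A2 had a Pearson correlation of 0.74 over all arrays, but of -0.18 once each group's mean was taken off. SLC31A2 and ATP7A gave -0.52 over all arrays and 0.43 after the group means were taken off. TMEM205, COMMD1 and ATOX1 varied together within groups: the correlation of deviations from the group means was 0.85 for COMMD1 and TMEM205, 0.83 for ATOX1 and COMMD1 and 0.74 for ATOX1 and TMEM205. ATP7A and TMEM205 gave 0.80 on the same measure. On the AsPC1-R arrays, for example, replicate 2 was the highest for each of ATOX1, COMMD1 and TMEM205.

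Among the 12328 genes whose highest group mean reached the median of all values, the genes most alike to each member were taken by Pearson correlation over 12 arrays, 3 for each member. For SLC31A1 they were SNX6, GCLM and PSMC2 (r from 0.988 to 0.992), for SLC31A2 GOLGA5, JAZF1 and SLC6A14 (0.961 to 0.971), and for ATP7A USP12, MERTK and PNMA1 (0.973 to 0.985). For ATP7B they were CYP4F3, ATG5 and KLHDC1 (0.898 to 0.928), for ATOX1 MRPS23, TMEM14C and CHMP5 (0.945 to 0.958), and for TMEM205 NUDCD3, PSMB6 and GRPEL1 (0.957 to 0.962). For CCS they were TMEM98, BOLA1 and MBLAC1 (0.883 to 0.890), and for COMMD1 ATP5MG, RNF113A and SLC39A7 (0.910 to 0.941). The 12 arrays fall in 4 groups, so these values mostly follow the group means.

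Other genes of copper handling were read from lists, whose counts stand beside 20.3% of all genes that passed in AsPC1-R and 20.8% in BxPC3-R. For mitochondrial copper delivery, 6 of 8 listed genes were measured, of which 1 rose and 2 fell in AsPC1-R and 1 rose and 0 fell in BxPC3-R. COX11, which inserts copper into cytochrome c oxidase, rose by 0.28 (SE 0.083) in AsPC1-R, where CMC1, of the same assembly pathway, changed by -0.57 (SE 0.14). SLC25A3, the mitochondrial phosphate carrier that also imports copper, changed by -0.27 (SE 0.067) in AsPC1-R and by 0.36 (SE 0.067) in BxPC3-R. SCO1 and SCO2, to which COX17 passes copper, did not pass in either derivative. The median change of the list was 0.04 in AsPC1-R and -0.01 in BxPC3-R.

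Of 17 genes for copper enzymes, 1 rose and 1 fell in AsPC1-R, and 0 rose and 4 fell in BxPC3-R, with medians of -0.16 and -0.10. The lysyl oxidase-like gene LOXL4, whose product crosslinks matrix proteins, rose by 0.76 (SE 0.098) in AsPC1-R and fell by 0.65 (SE 0.098) in BxPC3-R. PAM, which amidates peptide hormones, fell in both, by 0.30 (SE 0.078) in AsPC1-R and 0.62 (SE 0.078) in BxPC3-R. LOX fell by 0.52 (SE 0.12) and MOXD1 by 1.06 (SE 0.15) in BxPC3-R, with MOXD1 at readings of 4.96 in BxPC3-R and 6.02 in BxPC3, near those of the deleted genes.

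Metal reductases and divalent metal uptake gave calls for all 6 genes in BxPC3-R, 2 up and 4 down, and for 3 of 6 in AsPC1-R, 2 up and 1 down. STEAP4, which reduces iron and copper before uptake, rose by 0.86 (SE 0.22) in AsPC1-R at readings of 5.60 in AsPC1-R and 4.73 in AsPC1, both near the readings of the deleted genes, and fell by 2.11 (SE 0.22) in BxPC3-R at 5.71 in BxPC3-R and 7.83 in BxPC3. The reductase gene CYBRD1 rose by 0.40 (SE 0.090) in AsPC1-R and fell by 0.68 (SE 0.090) in BxPC3-R. SLC11A2, the divalent metal importer DMT1, fell by 0.77 (SE 0.11) in BxPC3-R. STEAP2, another reductase of the STEAP family, changed by -0.28 (SE 0.092) in AsPC1-R and -0.44 (SE 0.092) in BxPC3-R. The rises in BxPC3-R were those of STEAP3, by 0.58 (SE 0.094), and STEAP1, by 0.53 (SE 0.13). The median change of the list was -0.15 in AsPC1-R and -0.56 in BxPC3-R.

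Among partners of the copper ATPases, 15 of 16 were measured, with 4 rises and 1 fall in AsPC1-R and 1 rise and 2 falls in BxPC3-R. Clusterin (CLU), a chaperone that binds misfolded ATP7A and ATP7B, rose in both derivatives, by 1.15 (SE 0.085) in AsPC1-R and 1.46 (SE 0.085) in BxPC3-R. VPS35L and COMMD4, of the endosomal sorting complexes that hold COMMD1, rose by 0.62 (SE 0.11) and 0.46 (SE 0.11) in AsPC1-R. VPS35L read 6.20 in AsPC1-R and 5.58 in AsPC1, near the deleted genes, so its size is uncertain. COMMD9, of the same complexes, fell by 0.32 (SE 0.10) in BxPC3-R. The glutaredoxin gene GLRX fell by 0.43 (SE 0.094) in BxPC3-R. Medians were 0.18 in AsPC1-R and -0.04 in BxPC3-R.

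The list for protein lipoylation and copper-dependent cell death held 8 genes. Of these, 0 rose and 1 fell in AsPC1-R, and 1 rose and 1 fell in BxPC3-R. DLAT changed by -0.36 (SE 0.074) in AsPC1-R, and LIAS by 0.42 (SE 0.090) and PDHB by -0.56 (SE 0.15) in BxPC3-R. FDX1, the reductase of this pathway, did not pass in either. Of the 12 metallothionein and metal-sensing genes measured, which include the copper-buffering metallothioneins, 5 fell in AsPC1-R and 4 fell in BxPC3-R, and 0 rose in each. The falls in AsPC1-R include SP1, not a metallothionein gene, with a change of -0.42 (SE 0.085). MT1E changed by -0.90 (SE 0.11) in AsPC1-R and -1.01 (SE 0.11) in BxPC3-R, and MT2A by -0.57 (SE 0.081) in AsPC1-R and -0.48 (SE 0.081) in BxPC3-R. MT1F changed by -0.59 (SE 0.10) in AsPC1-R and -0.37 (SE 0.10) in BxPC3-R, and MT1X by -0.53 (SE 0.12) in BxPC3-R. The median change of the list was -0.34 in AsPC1-R and -0.27 in BxPC3-R. Metallothionein genes closely resemble each other, which makes the size for any single one of them uncertain.

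Other transporters linked to platinum gave 5 rises and 1 fall among 12 measured genes in AsPC1-R and 1 rise and 2 falls in BxPC3-R, with medians of 0.09 and -0.01. ABCC3, a conjugate exporter, rose by 0.69 (SE 0.092) in AsPC1-R and fell by 0.96 (SE 0.092) in BxPC3-R. ABCC2, a related exporter, rose by 0.64 (SE 0.14) in AsPC1-R. ABCC5, which exports cyclic nucleotides, rose by 0.32 (SE 0.10) in AsPC1-R and fell by 0.40 (SE 0.10) in BxPC3-R. The ABCC5 reading of 6.36 in AsPC1 lies under 6.55, the median of all values, so the size in AsPC1-R is uncertain. ABCC4 rose in both, by 1.30 (SE 0.10) in AsPC1-R and 0.31 (SE 0.10) in BxPC3-R. Its reading was 6.70 in AsPC1-R and 5.40 in AsPC1, the lower one within the span of the deleted genes, so the size of 1.30 is uncertain.

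**Figure D4:**
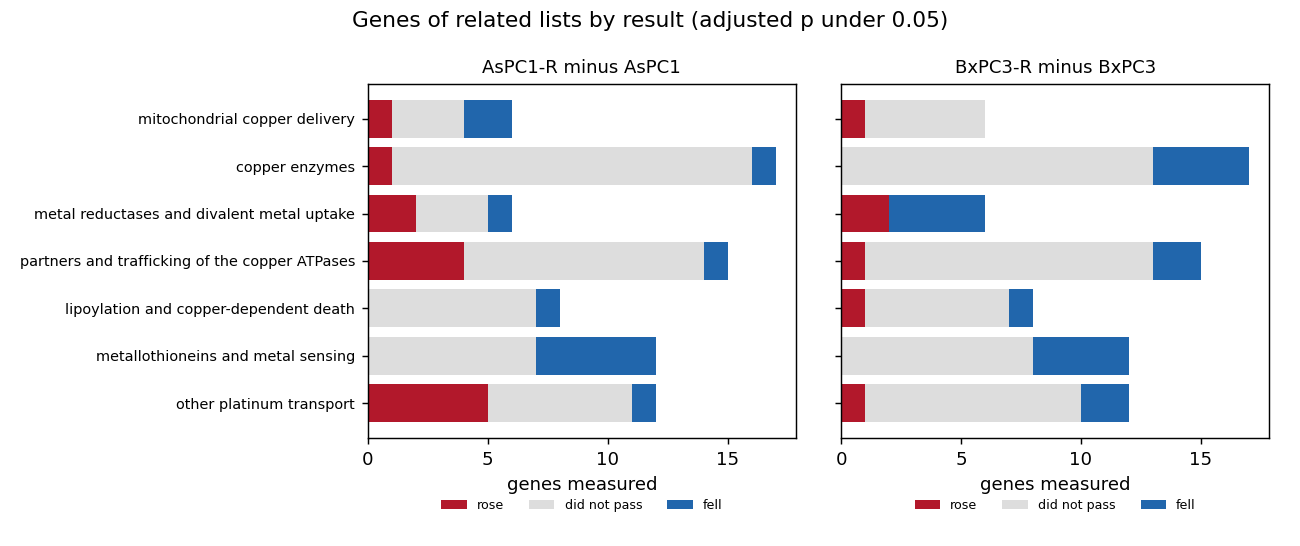
Numbers of measured genes (horizontal axis) in 7 lists related to copper or platinum that rose, did not pass or fell at an adjusted p under 0.05, in AsPC1-R minus AsPC1 and BxPC3-R minus BxPC3. Metallothioneins and metal-sensing genes show 5 and 4 falls and 0 rises, and all 6 genes of metal reduction and divalent uptake are coloured in BxPC3-R.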

How the data were processed

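Total RNA from 12 samples of 4 cell lines was amplified, biotin-labelled and hybridized by the authors. For each probe set the authors deposited a log2 level, made with Affymetrix Expression Console and RMA per the submitters' processing notes. Their versions and the build stay unstated in the labels. The number of arrays limits the precision. Of 33297 probe sets, 19460 with 1 gene symbol were kept, and the highest mean per gene gave 18417 genes. limma 3.58.1 in R 4.3.3 was fitted to all 12 arrays with a mean per group (8 residual and 5.47 prior degrees of freedom), two-sided, with Benjamini-Hochberg adjustment over all genes within each contrast. Intervals are 95% and unadjusted.

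The members and lists were chosen with earlier results of these data known. All members are named. From each list up to 3 genes with the largest called change per derivative were named by rule. The 3 most alike genes and the nearest neighbours were also named by rule. SCO1, SCO2, FDX1, LOX, SP1, STEAP1 and STEAP3 were chosen outside the rule, after their values were seen. Neighbours came from the RefSeq gene order of GRCh38.p14. The fit was tested on simulated data in which 100 of 18417 genes were changed. It called 68.0% of those given a log2 change of 0.5 in AsPC1-R, 69.0% in BxPC3-R and 18.0% for the difference between the lines. With a change of 1 it called 100%, 99% and 93%. A far larger share of genes passed in the arrays themselves, so these rates may not hold there.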

Additional observations from a re-analysis of the deposited data

Results flagged for a closer look

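The change of 4 genes differed between the 2 derivatives by limma's test of the difference, AsPC1-R minus AsPC1 less BxPC3-R minus BxPC3. The difference was 1.08 for SLC31A2 (adjusted p = 0.000214) and 0.87 for TMEM205 (adjusted p = 0.00536). It was 0.65 for ATP7B (adjusted p = 0.00777) and 0.59 for ATOX1 (adjusted p = 0.0192). The ATP7B readings are not shown to stand above background, and CDKN2A, deleted in BxPC3, differed by 0.70 (adjusted p = 0.0158). The ATOX1 difference was not called without BxPC3 replicate 2 (adjusted p = 0.0505) or BxPC3-R replicate 2 (adjusted p = 0.0511). All 3 AsPC1-R arrays lay above AsPC1 for each of the 4 genes, as they did for 16.1% of all genes. All 3 BxPC3-R arrays lay below BxPC3 for each but TMEM205, as they did for 18.8% of all genes. The 4 genes were picked by their difference on these same arrays, so this separation is no added support. The ATOX1 change in BxPC3-R did not pass by limma (adjusted p = 0.239).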

How the results depend on the processing

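The number of the 8 genes called moved by more than 1.5 times at an adjusted p under 0.01: 3 in AsPC1-R (from 5), 1 in BxPC3-R (from 3) and 3 between the parental lines (from 5). With arrays left out in turn, 3 to 5 were called in AsPC1-R, 1 to 3 in BxPC3-R, 3 to 4 for the difference between the lines, 3 to 5 between the parental lines and 4 to 5 between the derivatives; the low values came without AsPC1-R replicate 2 or AsPC1 replicate 1 (3 in AsPC1-R), without BxPC3-R replicate 3 or BxPC3 replicate 2 (1 in BxPC3-R), and without BxPC3 replicate 2 (3 between the parental lines). Over all genes, adjusted p under 0.01 gave 2279, 2495 and 2998 calls in AsPC1-R, BxPC3-R and for the difference between the lines, against 3730, 3826 and 4685, and array weights gave 6356 in BxPC3-R. Of single-gene results, 766 kept direction and call, 41 lost the call, 3 gained it and 17 changed sign. All 17 had no call: with single arrays left out, CCS in BxPC3-R ranged from -0.050 to 0.19 and COMMD1 from -0.13 to 0.057, and between the parental lines ATOX1 ranged from -0.058 to 0.097 and COMMD1 from -0.20 to 0.069. ATOX1 there was -0.026 with arrays centred, and COMMD1 was 0.00066 with quantile normalization once more. SLC31A2 between the derivatives was -0.025 with that normalization and -0.021 with arrays centred, and ranged from -0.032 to 0.060 with single arrays left out. With replicate number as a block, 4, 3, 4, 5 and 5 of the 8 genes were called in the 5 comparisons; ATOX1 in AsPC1-R alone lost its call (adjusted p = 0.0503). Deviations of same-numbered arrays correlated between -0.24 and 0.17, so the numbers are not taken to pair the arrays. RMA values hold no background measure, which limits ATP7B most. A fit of the compared groups alone gives no value for the difference between the lines, and ATP7B has none once dim genes are left out.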
